A study of Mus musculus with 9 samples.

Results

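Serum amyloid A and a group of other host defence genes were followed in the mouse small intestine: Saa1, Saa2, Saa3, Saa4, Leap2, Duox2, Duoxa2, Nos2, Lcn2 and Pigr. Every probe set (the group of short probes on the array that reads a transcript) annotated to exactly 1 of these 10 symbols was taken, which gave 12 probe sets of 9 genes among 45037 on the array. No probe set was annotated to Duox2 alone, so Duox2 was not analysed here. Of the 12 probe sets, 10 passed a filter on low values and stood for 8 genes, and both Saa4 probe sets fell below it. Saa1, Saa2 and Nos2 were under the filter's level on each control jejunum array and passed it through the other groups, so counts over the tested members describe them and support nothing further.

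RNA was taken from control jejunum, mutant jejunum and control ileum of male mice aged 6 to 8 weeks, with 3 mice and 3 arrays a group. Controls were Gata4loxP/+VilCre and mutants Gata4loxP/-VilCre, so that all mice carried 1 loxP-flanked copy of Gata4, beside a wild-type copy in controls and a null copy in mutants. All also carried Cre driven by the villin promoter, which is active in the gut epithelium, and Gata4 encodes a transcription factor of the proximal small intestine. The jejunal site lay 10 cm below the pyloric sphincter and the ileal site 1 cm before the cecum, and control jejunum and control ileum came from different animals. Which layers of the gut wall the samples held is not stated in the labels. The design asks how the jejunum of mice with a conditional deletion of Gata4 in the epithelium compares with the same segment of controls, and with the ileum, where Gata4 is normally low.

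These genes are part of innate defence at the mucosal surface. Serum amyloid A proteins are small lipid- and retinol-binding proteins that the liver releases in the acute phase, and the ileal epithelium also makes them when bacteria attach to it, through interleukin-23, interleukin-22 and STAT3. DUOX2 with its maturation factor DUOXA2 releases hydrogen peroxide into the lumen, NOS2 makes nitric oxide, LCN2 binds bacterial siderophores, and PIGR carries dimeric IgA across the epithelium. LEAP2 is a cationic peptide of liver and jejunum that also blocks the ghrelin receptor.

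In the mouse genome Saa3, Saa4, Saa1 and Saa2 lie side by side on chromosome 7 with 0 protein-coding genes between neighbours, and Duox2 lies next to Duoxa2 on chromosome 2 with 0 between them. The start regions of Saa1 and Saa2 are shown because these neighbours, which were both called higher in ileum, are close to each other in sequence there. Each window comes from RefSeq (GRCm38.p6) and runs 250 bases before to 50 bases after the start that its promoter table uses, without a named transcript. The windows are Saa1 at chr7:46742931-46743230 on the minus strand and Saa2 at chr7:46751583-46751882 on the plus strand. For Saa1 and Saa3 that start lies inside the outer limits of the gene, so other transcripts may start elsewhere. Capitals mark the 13 bases in each window that differ from the other window or face a gap in it, out of 301 aligned columns with 95.3% identity.
Saa1: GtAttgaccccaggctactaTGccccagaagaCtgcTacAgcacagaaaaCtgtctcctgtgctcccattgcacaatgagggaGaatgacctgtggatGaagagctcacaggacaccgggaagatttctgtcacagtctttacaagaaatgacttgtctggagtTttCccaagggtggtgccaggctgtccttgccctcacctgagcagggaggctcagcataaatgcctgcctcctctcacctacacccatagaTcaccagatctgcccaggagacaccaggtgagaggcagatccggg
Saa2: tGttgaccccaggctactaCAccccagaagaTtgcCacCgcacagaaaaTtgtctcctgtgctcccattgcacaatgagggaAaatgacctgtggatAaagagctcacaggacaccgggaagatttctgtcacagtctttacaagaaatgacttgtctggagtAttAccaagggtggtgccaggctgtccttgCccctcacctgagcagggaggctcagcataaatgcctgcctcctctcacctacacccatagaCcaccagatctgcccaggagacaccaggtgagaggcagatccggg
The Saa3 window (chr7:46715627-46715926, minus strand) is shown beside them because it is far from both, with 49.5% identity to Saa1 and 49.1% to Saa2. Its capitals mark the match to a GATA motif among the member windows, at positions -134 to -129 from the start of that table.
Saa3: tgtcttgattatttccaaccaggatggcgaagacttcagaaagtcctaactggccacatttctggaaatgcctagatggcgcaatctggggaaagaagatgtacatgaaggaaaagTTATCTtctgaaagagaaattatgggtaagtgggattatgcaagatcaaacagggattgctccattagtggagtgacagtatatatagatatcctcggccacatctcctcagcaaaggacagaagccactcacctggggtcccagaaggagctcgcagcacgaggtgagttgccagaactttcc

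Windows were found for 8 of the 10 members, and Leap2 and Nos2 had none. Motifs of 4 kinds were searched on both strands. GATA was AGATAA or AGATAG, and the same with T first, TGATAA or TGATAG. STAT was TTCNNNGAA, and C/EBP was TTGCGCAA or TTGNNNCAA. The NF-kappaB consensus was searched as a pattern of letters too, and is given here by its name alone. The share of all 32851 windows with a match was 29.8% for GATA, 8.30% for STAT, 6.00% for C/EBP and 8.46% for NF-kappaB. Among the 8 member windows there was 1 GATA match, in Saa3, and 1 STAT match, TTCCTGGAA at positions 40 to 48 of Pigr. These matches describe the letters of the windows only.

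Over the 9 arrays the trimmed mean of the deposited intensity was 150 to 172 in control jejunum, 147 to 180 in mutant jejunum and 96.8 to 122 in control ileum, so the ileum arrays were dimmer before scaling. Mutant jejunum 3 stood apart from the other arrays on the second principal component (-55.8, against -6.17 to 22.4), and the members called without it numbered 1 in mutant against control jejunum, 6 in ileum against control jejunum and 3 in mutant jejunum against ileum, as with it. The 2 Gata4 probe sets were not lower in mutant than in control jejunum by the test (log2 differences of -0.02 and 0.65, adjusted p = 0.959 and 0.195), and where they lie relative to the deleted part is not known here, so they do not check the genotype. All 13 epithelial markers were above the filter, and their summed intensity was 60000 to 61800 in control jejunum, 65900 to 71300 in the mutant and 73400 to 75700 in ileum, with no overlap. Of them 3 were called higher and 0 lower in mutant against control jejunum, and 7 higher and 0 lower in ileum against control jejunum (7 and 0, and 8 and 0, at an unadjusted p under 0.05 in limma). Of the 7 called in ileum, Krt18 and Tspan8 alone kept their call with no scaling between arrays. Cdh1 and Epcam then read -0.14 and -0.06 in ileum against control jejunum. The part of this epithelial difference in the member values was not tested. All levels given here are log2(intensity + 16) after quantile normalization, on which an intensity of 0 reads 4, and the filter stood at 4.95. Genes were called at an adjusted p under 0.05 in limma's moderated test over 29307 probe sets. The number of mice, 3 a group, limits the precision, and in bulk samples a smaller number of cells of a type and less RNA per cell cannot be told apart.

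In control ileum, all 3 tested serum amyloid genes rose over control jejunum, together with Duoxa2 and Nos2, and Leap2 fell by 6.10 on the log2 scale. In mutant against control jejunum Leap2, the 1 member that passed the test, fell by 1.78 on the log2 scale. Saa1, Saa3, Duoxa2 and Nos2 read higher in each mutant array than in each control jejunum array without passing it. Against control ileum, mutant jejunum had less Saa1 and Saa2 and more Leap2.

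Of the 8 member genes tested, 5 were called higher in ileum than in control jejunum and 1 was called lower, against 8.79% and 9.12% of all 13830 genes, or 17.9% in either direction. Between mutant and control jejunum 0 were called higher and 1 lower, against 2.10% and 2.29% of all genes, or 4.39% in either direction. With an unadjusted p under 0.05 in limma there were, among the members, Saa1, Saa3, Duoxa2 and Nos2 on the higher side. The share of all genes at that unadjusted level was not computed. Counts at that level, for the members and for the lists below, are therefore a description only. Between mutant jejunum and control ileum 1 was called higher and 2 lower, against 1.97% and 1.70% of all genes, or 3.67%. Groups that did not overlap were seen in ileum against control jejunum for 5 members on the higher side and 2 on the lower. Over all genes it was 40.1% in either direction. They were seen for 4 and 2 in mutant against control jejunum (25.0%) and for 1 and 2 in mutant jejunum against ileum (22.6%). Pigr was 1 of the 2 lower members in both comparisons with control jejunum. Its gaps were only 0.02 in ileum and 0.01 in the mutant (1455490_at), and its other probe set overlapped in ileum. The median log2 difference of the 8 members was 1.62 in ileum against control jejunum, 0.52 in mutant against control jejunum and -0.28 in mutant jejunum against ileum, beside 0.03, 0.00 and -0.02 over all genes.

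**Figure D1:**
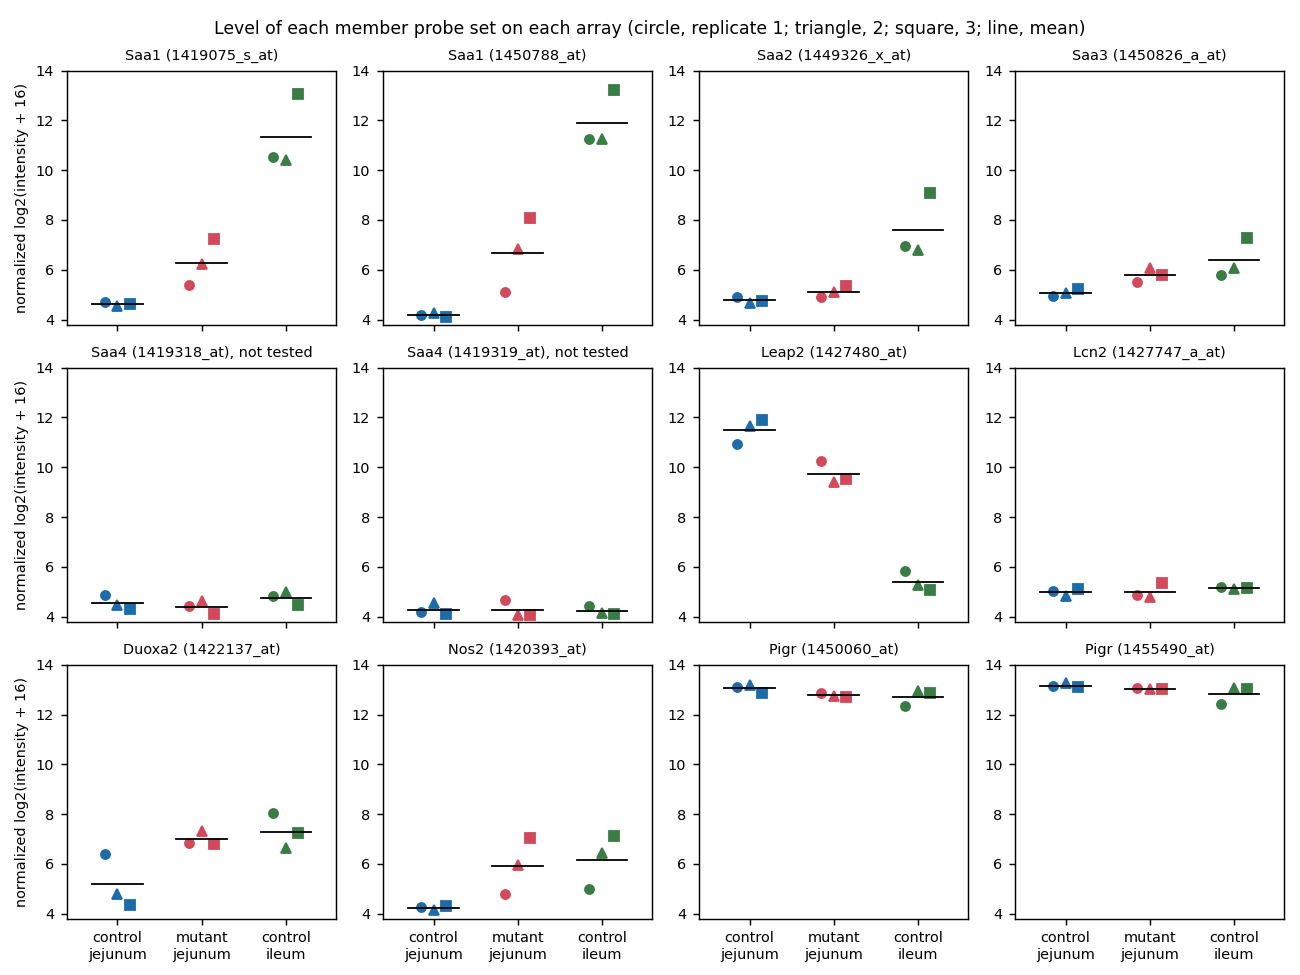
Level of each member probe set on each of the 9 arrays, in log2(intensity + 16) after quantile normalization, with 1 point per mouse and a bar at the mean of each group of 3. The Saa1 points of control ileum sit between 11.24 and 13.21 and those of control jejunum between 4.11 and 4.28, while the Leap2 points run the other way.

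Saa1, an acute phase apolipoprotein, was near the bottom of the scale in control jejunum. Its probe set 1450788_at read 4.17, 4.28 and 4.11 in control jejunum 1 to 3, 5.10, 6.82 and 8.09 in mutant jejunum 1 to 3, and 11.25, 11.24 and 13.21 in control ileum 1 to 3. No group overlapped another, and the mutant mice spread from 5.10 to 8.09 where the controls of the same segment spread from 4.11 to 4.28. In deposited intensities this was 2.23, 3.85 and 1.47 in control jejunum, 20.4, 114 and 260 in mutant jejunum, and 1640, 1970 and 8430 in control ileum. The rise in ileum over control jejunum was 7.71 (SE 0.66, 210-fold on this scale, adjusted p = 3.09e-05). Because control jejunum was near background, this fold depends on the number added before taking logs, and the log2 difference was 10.28 with 1 and 5.87 with 64. The ileum of mouse 3 held the highest level, and without it the difference was 7.10 (adjusted p = 0.000126).

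In mutant against control jejunum the same probe set differed by 2.49 (SE 0.66, 95% interval 1.03 to 3.94), with an adjusted p of 0.0701 that missed the threshold. It passed in 6 of 20 alternative settings, among them without mutant jejunum 1 (3.25, adjusted p = 0.0118), without control ileum 3 (2.51, adjusted p = 0.0418) and with 1 in place of 16 added before taking logs (4.68, adjusted p = 0.0118). Without mutant jejunum 3 the Saa1 difference was 1.77 (adjusted p = 0.155), so its size and its side of the threshold depended on single arrays. Between mutant jejunum and ileum the difference was -5.23 (SE 0.66, 37.5-fold lower in the mutant, adjusted p = 0.00319), a difference called in all 20 alternatives. Without control ileum 3 that difference was -4.59, and without mutant jejunum 1 it was -4.44 (adjusted p = 0.00962 and 0.00566).

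A second probe set annotated to Saa1, 1419075_s_at, read 4.72, 4.56 and 4.62 in control jejunum, 5.37, 6.22 and 7.23 in mutant jejunum, and 10.53, 10.43 and 13.07 in control ileum. Its arrays fell in the same order of groups with no overlap. It was 6.71 higher in ileum than in control jejunum (SE 0.62, adjusted p = 5.45e-05; 5.88 and 2.94e-05 without control ileum 3) and 1.64 higher in mutant than in control jejunum (adjusted p = 0.208). Between mutant jejunum and ileum its difference was -5.07 (adjusted p = 0.00261), and -4.23 without control ileum 3 (adjusted p = 0.00141). The transcript that the array's annotation gives for this probe set belongs to Saa2 in RefSeq, and the ending of its name marks probes shared by several transcripts. Values named Saa1 and Saa2 here are therefore uncertain as to which of the 2 genes they read, and the probes themselves were not compared.

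The probe set named Saa2, 1449326_x_at, whose ending marks probes that can bind other transcripts, read 4.92, 4.67 and 4.76 in control jejunum, 4.89, 5.09 and 5.35 in mutant jejunum, and 6.94, 6.78 and 9.09 in control ileum. The jejunal groups overlapped and the ileum stood above both. Saa2 was 2.82 higher in ileum than in control jejunum (SE 0.48, adjusted p = 0.00257), and 2.09 higher without control ileum 3 (adjusted p = 0.000180). Between mutant and control jejunum the difference for Saa2 was 0.33 (95% interval -0.72 to 1.37, adjusted p = 0.794). Between mutant jejunum and ileum the Saa2 difference was -2.49 (SE 0.48, adjusted p = 0.0231) that was -1.76 without control ileum 3, and its call was lost without mutant jejunum 1 or 2 (adjusted p = 0.0837 and 0.0635).

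Saa3, a family member that macrophages, fat and gut epithelium can make, showed smaller differences. It read 4.94, 5.06 and 5.23 in control jejunum, 5.52, 6.06 and 5.81 in mutant jejunum, and 5.80, 6.06 and 7.29 in control ileum. All mutant and ileal arrays were above all control jejunum arrays, and mutant jejunum and ileum overlapped. Saa3 was 1.30 higher in ileum than in control jejunum (SE 0.32, adjusted p = 0.0196), and this call did not hold when control jejunum 1 or 2 was left out (adjusted p = 0.0570 and 0.0615). Without control ileum 3 the Saa3 difference was 0.86 (adjusted p = 0.0257). Mutant and control jejunum differed by 0.72 (95% interval 0.01 to 1.43, adjusted p = 0.292), and mutant jejunum and ileum by -0.59 (adjusted p = 0.413).

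The highest Saa3 reading within mutant jejunum was in mouse 2 and within control ileum in mouse 3, and 3 of the 4 tested fat markers, Adipoq, Fabp4 and Retn, were highest in their groups on these arrays too. Adipoq, the fat cell hormone adiponectin, read 4.33, 8.65 and 4.27 in mutant jejunum and 4.04, 6.54 and 9.34 in control ileum. The fourth, the lipid droplet gene Cidec, was not highest there, with 8.66, 8.44 and 8.36 in mutant jejunum and 7.91, 6.59 and 7.12 in ileum, and it fell by 1.45 in ileum against control jejunum (adjusted p = 0.00809). The summed intensity of the fat markers, of which 6 of 8 were on the array and 4 above the filter, was 561 to 753 in control jejunum, 570 to 2150 in mutant jejunum and 393 to 3090 in control ileum, with Lep and Cidea below the filter. The macrophage and dendritic cell markers, all 13 above the filter, summed to 5470 to 5780, 4260 to 7720 and 4680 to 7280, with the highest sums in mutant jejunum 3 and control ileum 3. The lysozyme gene Lyz2, the brightest of the 13, weighed most in these macrophage sums. The part of fat cells and macrophages in the Saa3 values was not tested.

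**Figure D2:**
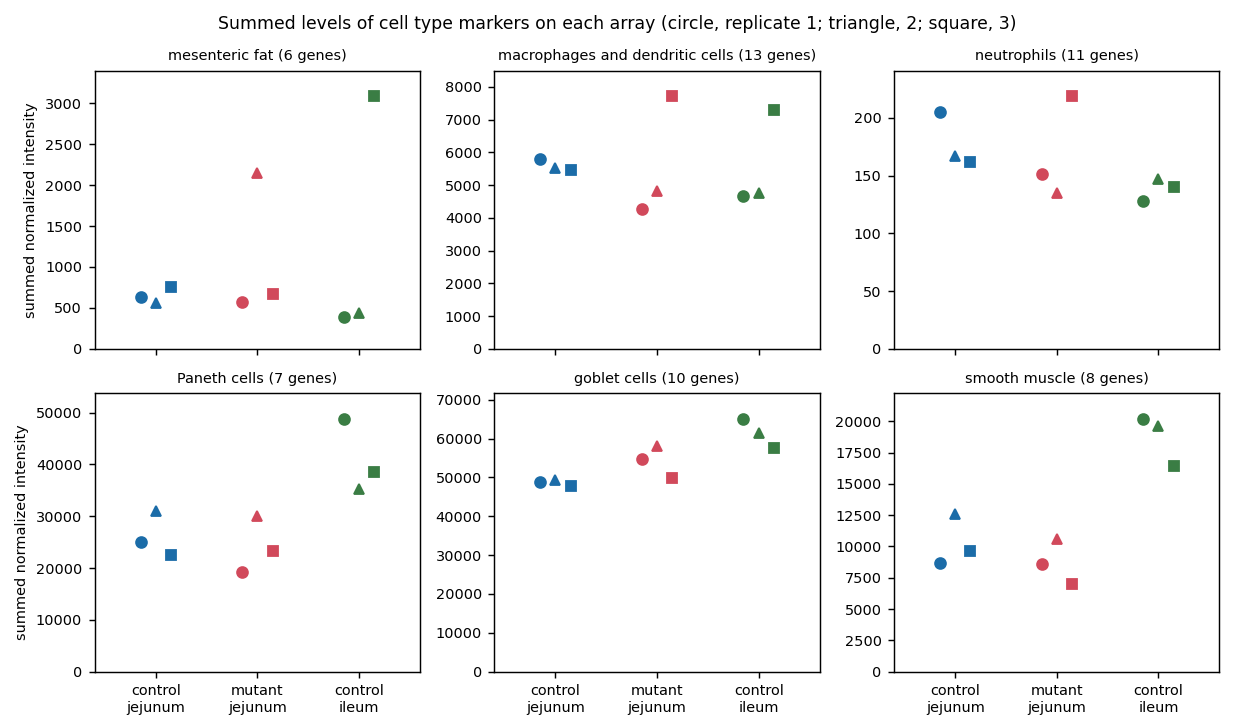
Summed intensity of 6 lists of cell type markers on each of the 9 arrays, quantile normalized and linear, with 1 point per mouse. Fat markers reach 2150 in mutant jejunum 2 and 3090 in control ileum 3, and smooth muscle markers are 16400 to 20200 in control ileum against 8650 to 12600 in control jejunum.

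Saa4, the constitutive member of the family, which is made mainly by the liver, stayed below the filter. Its 2 probe sets lay between 4.06 and 4.98 on all 9 arrays and were not tested, and no order of the groups can be read at that level.

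Leap2 was high in control jejunum and fell in both comparisons with it. The probe set read 10.95, 11.65 and 11.91 in control jejunum, 10.25, 9.40 and 9.52 in mutant jejunum, and 5.83, 5.29 and 5.07 in control ileum. The 3 groups did not overlap, and mutant jejunum lay nearer to control jejunum than to ileum. Deposited intensities were 2300, 3140 and 4610 in control jejunum, 1520, 827 and 726 in mutant jejunum, and 26.7, 19.1 and 14.6 in ileum.

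Between mutant and control jejunum Leap2 fell by 1.78 on the log2 scale (SE 0.29, 3.43-fold, 95% interval -2.42 to -1.14, adjusted p = 0.00702). It fell by 6.10 in ileum against control jejunum (SE 0.29, 68.8-fold, adjusted p = 7.51e-07), and mutant jejunum was 4.32 above ileum (SE 0.29, 20.0-fold, adjusted p = 3.00e-05). Each of these 3 differences was called in all 20 alternative settings, with adjusted p values up to 0.0416 for the first, which was -1.68 without mutant jejunum 3 (adjusted p = 0.0261). The order of the levels was therefore control jejunum, mutant jejunum, control ileum, with both neighbouring pairs different by the test. Leap2 in ileum was near background, so the folds against ileum depend on the number added before taking logs. With 1 and with 64, ileum against control jejunum gave -6.77 and -5.02, and mutant jejunum against ileum gave 4.97 and 3.30.

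Lcn2, lipocalin 2, which rises with mucosal inflammation and in neutrophils, was close to the filter in every group. It read 5.03, 4.84 and 5.13 in control jejunum, 4.86, 4.80 and 5.35 in mutant jejunum, and 5.18, 5.10 and 5.15 in control ileum. The groups overlapped, and the differences were 0.00 in mutant against control jejunum (95% interval -0.41 to 0.42), 0.14 in ileum against control jejunum and -0.14 in mutant jejunum against ileum (adjusted p = 0.994, 0.655 and 0.777). The neutrophil genes S100a8 and S100a9, subunits of calprotectin, were below the filter, with 4.05 to 4.89 and 4.05 to 4.45 over the 9 arrays.

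Duoxa2, the factor that brings DUOX2 to the cell surface, read 6.38, 4.78 and 4.36 in control jejunum, 6.85, 7.34 and 6.79 in mutant jejunum, and 8.04, 6.62 and 7.23 in control ileum. Control jejunum 1 was well above the other 2 control jejunum arrays, yet below all 6 others. Duoxa2 was 2.13 higher in ileum than in control jejunum (SE 0.47, 4.37-fold, adjusted p = 0.0116), called in all 20 alternatives, and 2.72 higher without control jejunum 1 (adjusted p = 0.00122).

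In mutant against control jejunum Duoxa2 differed by 1.82 (SE 0.47, 95% interval 0.78 to 2.86), and its adjusted p of 0.0624 missed the threshold. Without control jejunum 1 it was 2.41 and passed (adjusted p = 0.00760), and it passed in 5 of 20 alternatives in all. Mutant jejunum and ileum overlapped, with a difference of -0.31 (95% interval -1.35 to 0.73, adjusted p = 0.804). Duox1, the paralog of Duox2, averaged 4.91 ± 0.07 in the jejunum of controls, 4.89 ± 0.15 in that of mutants and 4.83 ± 0.24 in ileum (SD, n = 3 each) and was not called in any of the 3 comparisons, and Duoxa1 was below the filter.

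Nos2, inducible nitric oxide synthase, read 4.25, 4.15 and 4.32 in control jejunum, 4.78, 5.96 and 7.04 in mutant jejunum, and 4.99, 6.43 and 7.11 in control ileum. Mutant jejunum and ileum covered nearly the same range, and each of their 6 arrays lay above control jejunum. Nos2 was 1.94 higher in ileum than in control jejunum (SE 0.56, 3.83-fold, adjusted p = 0.0384). That call held in 12 of 20 alternatives and was lost without any 1 of control jejunum 1, 2 or 3, mutant jejunum 2 or control ileum 2 or 3 (adjusted p from 0.0539 to 0.127, with a difference of 1.49 without control ileum 3).

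In mutant against control jejunum Nos2 differed by 1.69 (SE 0.56, 95% interval 0.45 to 2.92, adjusted p = 0.146), with 2.24 without mutant jejunum 1 (adjusted p = 0.0471) and 1.13 without mutant jejunum 3 (adjusted p = 0.306). Between mutant jejunum and ileum the difference was -0.25 (95% interval -1.49 to 0.98, adjusted p = 0.874). Macrophages can also make Nos2, and the macrophage marker sum was highest in mutant jejunum 3 and control ileum 3, the arrays with the highest Nos2 of their groups. Of the 13 macrophage markers, however, 0 were called higher and 2 lower in ileum against control jejunum (0 and 5 at an unadjusted p under 0.05 in limma), among them Itgax, which fell by 1.17 (adjusted p = 0.00214). Lyz2, the macrophage lysozyme, was the brightest of the 13 on every array, so it weighed most in the linear sum. Its levels were 10.58, 10.86 and 11.60 in mutant jejunum and 11.33, 11.37 and 11.95 in control ileum. The part of macrophages in the Nos2 values was not tested.

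Pigr, the polymeric immunoglobulin receptor, was at the top of the scale in all groups. Its probe set 1455490_at read 13.15, 13.26 and 13.09 in control jejunum, 13.08, 13.03 and 13.01 in mutant jejunum, and 12.43, 13.07 and 13.01 in control ileum. Probe set 1450060_at ran from 12.87 to 13.18, from 12.70 to 12.86 and from 12.33 to 12.94 in the same groups. Control ileum 1 was the lowest array for both. Against control jejunum the differences were -0.13 and -0.27 in the mutant (adjusted p = 0.709 and 0.387) and -0.33 for both probe sets in ileum (adjusted p = 0.137 and 0.155). With no scaling between arrays, where the dimmer ileum arrays shift the median of all genes by -0.42, both Pigr probe sets were called lower in ileum (-0.70 and -0.73, adjusted p = 0.0195 and 0.0153). Jchain, the chain that joins IgA dimers for this receptor, fell by 0.65 in ileum against control jejunum (adjusted p = 0.0177), a call lost without control jejunum 1 or 2 (adjusted p from 0.0547 to 0.0693), and differed by -0.02 in mutant against control jejunum (adjusted p = 0.974). It is 1 of 11 tested B and plasma cell markers, of which 5 were called lower and 1 higher in ileum against control jejunum (7 and 1 at an unadjusted p under 0.05), with summed intensities of 9680 to 11600 in control jejunum, 11200 to 12400 in the mutant and 6280 to 9050 in ileum. Jchain, the brightest of the 11 on every array, weighed most in these sums, so they are not a measure separate from it. The part of B and plasma cells in the Jchain and Pigr values was not tested.

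**Figure D3:**
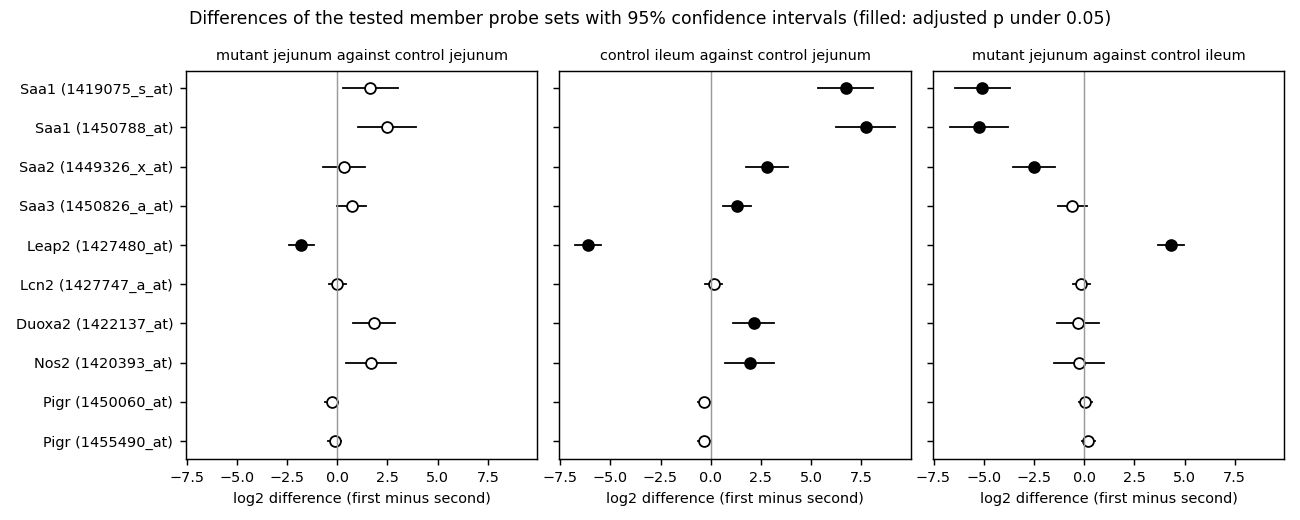
Log2 difference of each tested member probe set in the 3 comparisons, with its 95% interval from the limma fit, where filled points have an adjusted p under 0.05. In mutant against control jejunum the filled point is Leap2 at -1.78, while the intervals of Saa1 (1.03 to 3.94), Duoxa2 (0.78 to 2.86) and Nos2 (0.45 to 2.92) lie above 0 with open points.

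The place of mutant jejunum between the segments was set out for the members called in ileum against control jejunum, as the percent of the way from the mean of control jejunum (0%) to that of control ileum (100%). This is a description, since the distance uses the same control arrays as both comparisons. The 3 mutant arrays stood at 11.9%, 34.2% and 50.6% for Saa1 (1450788_at), with a mean of 32.2%, and the mean for Saa2 was 11.6%. Saa3 stood at 34.1%, 75.1% and 56.0%, and Leap2 at 20.6%, 34.4% and 32.5%. Duoxa2 stood at 78.7%, 102% and 76.2%, and Nos2 at 27.6%, 88.9% and 145%. The mean of the mutant arrays was thus nearer to ileum for Duoxa2 (85.6%) and Nos2 (87.1%), and just past the midpoint for Saa3 (55.1%). It was nearer to control jejunum for Saa1, Saa2 and Leap2, with mutant jejunum 3 past the midpoint for Saa1. The single arrays of Nos2 spread over much of the distance and beyond it. No test of a difference in position between members was made.

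**Figure D4:**
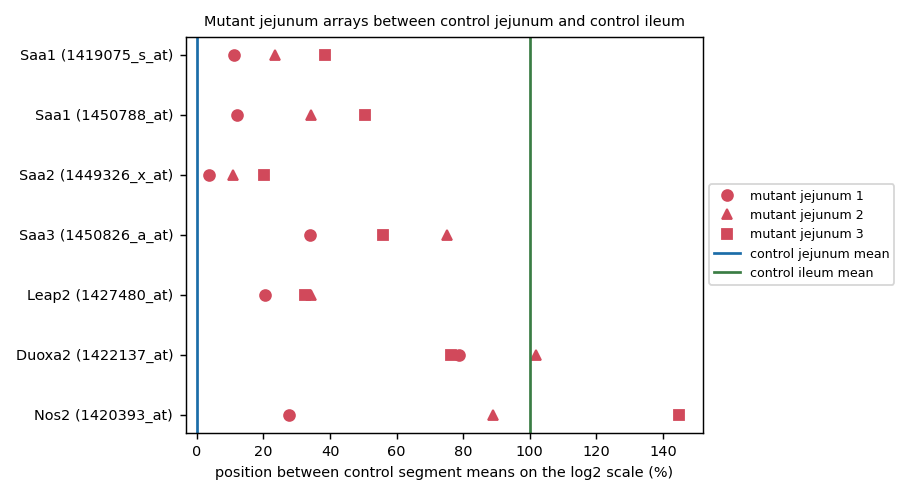
Position of each mutant jejunum array between the means of control jejunum (0%) and control ileum (100%) on the log2 scale, for members called between the segments. Duoxa2 points lie at 76.2% to 102%, Leap2 points at 20.6% to 34.4% and Nos2 points from 27.6% to 145%.

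The other genes of these pathways were counted by lists. Of 26 tested genes that inflammatory or bacterial signals induce, 0 were called higher and 1 lower by limma in mutant against control jejunum (3 and 1 at an unadjusted p under 0.05), and 4 were higher and 2 lower in ileum. The medians were 0.07 and 0.08, beside 0.00 and 0.03 over all genes. In mutant jejunum the 1 was Cebpb, a transcription factor of the acute phase, which fell by 0.81 (adjusted p = 0.0261), a call lost without control jejunum 2 or 3 or mutant jejunum 1 or 2 (adjusted p from 0.0596 to 0.0959). That call held in 13 of 20 alternatives. In ileum Fut2, which fucosylates epithelial glycans, rose by 2.30 and Tifa, an adaptor of NF-kappaB signalling, by 1.92 (adjusted p = 0.00263 and 0.00212). Fut2 was under the filter's level on each control jejunum array and passed it through the other groups. Il18, an epithelial cytokine, fell by 1.11 in ileum (adjusted p = 0.0459), with the call lost without control jejunum 1 or 2, mutant jejunum 1 or control ileum 1 or 2 (adjusted p from 0.0562 to 0.142), and Cebpb fell by 0.75 (adjusted p = 0.0124). The C-type lectin Reg3b, a well known target of interleukin-22, differed by 0.57 in mutant against control jejunum and 0.63 in ileum against control jejunum (adjusted p = 0.161 and 0.0531). Of its 2 tested probe sets, 1 was called higher in ileum.

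Of 31 tested genes of the receptors and relays upstream, 1 was called higher and 0 lower in mutant jejunum and 2 higher and 0 lower in ileum, each against control jejunum (3 and 1, and 5 and 4, at an unadjusted p under 0.05 in limma), with medians of 0.07 and -0.05. Relb, an NF-kappaB subunit, was the 1 in mutant jejunum, at 0.72 (adjusted p = 0.0410), a call lost without control jejunum 1, 2 or 3, mutant jejunum 1 or 2 or control ileum 2 (adjusted p from 0.0515 to 0.154). That call held in 9 of 20 alternatives. Relb rose by 0.89 in ileum (adjusted p = 0.00481). Il17rc, a subunit of the interleukin-17 receptor, rose by 0.67 in ileum (adjusted p = 0.0115), a call lost without control jejunum 2 (adjusted p = 0.0522). The ileal calls of Relb and Il17rc were lost with no scaling between arrays, and that of Il17rc also with arrays centred on their medians. The interleukin-22 receptor chain Il22ra1 differed by 0.04 and 0.11 and the transcription factor Stat3 by -0.07 and -0.42, none of them called, and Il6, Tnf and Il23a were below the filter.

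In the oxidant list of 19 tested genes, which make or remove reactive oxygen and nitric oxide, 1 was called higher and 2 lower in mutant against control jejunum, and 1 higher and 4 lower in ileum, with medians of -0.01 and -0.11. Gpx2, the glutathione peroxidase of the gut epithelium, rose by 1.52 in mutant jejunum (adjusted p = 0.0380) and by 1.61 in ileum (adjusted p = 0.0101). The first call was lost without control jejunum 2 or 3, any 1 mutant array or control ileum 2 or 3 (adjusted p from 0.0522 to 0.136). It held in 10 of 20 alternatives. Arg2, an arginase that uses the same substrate as NOS2, fell by 1.47 in mutant jejunum and fell by 2.21 in ileum (adjusted p = 0.00600 and 0.000129), both called in all 20 alternatives. Catalase (Cat) fell by 0.59 and fell by 1.57 (adjusted p = 0.0137 and 7.89e-06), with the first lost without control jejunum 2 or 3 or mutant jejunum 2 (adjusted p from 0.0668 to 0.0752). That first call was also lost with no scaling and with arrays centred on their medians. Of the 2 tested probe sets of Cat, 1 was called lower in mutant jejunum and 2 in ileum. Cyba, the small subunit of NADPH oxidases, differed by 0.64 and 0.20, neither called.

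Of 16 other antimicrobial products tested, 1 was called higher and 0 lower in mutant jejunum and 5 higher and 0 lower in ileum, against control jejunum (4 and 2, and 6 and 0, at an unadjusted p under 0.05 in limma), with medians of 0.07 and 0.31. Retnlb, a goblet cell product that kills gram-negative bacteria, was the 1 in mutant jejunum, and Mptx1, a pentraxin, rose by 1.79 in ileum (adjusted p = 5.28e-05). Retnlb read 4.31, 4.07 and 4.10 in control jejunum, 7.24, 7.87 and 7.44 in mutant jejunum, and 11.34, 7.66 and 7.92 in ileum. It was under the filter's level in control jejunum and passed it through the other groups, so its rise supports nothing further. All mutant arrays of Retnlb were above all control jejunum arrays, and the call (3.36, adjusted p = 0.0318) was lost without any 1 control jejunum or mutant jejunum array (adjusted p from 0.0626 to 0.116). The Paneth cell markers, 7 of 9 above the filter, summed to 22600 to 31000 in control jejunum, 19300 to 30100 in mutant jejunum and 35200 to 48800 in ileum. Of them 5 were called higher in ileum than in control jejunum and 0 lower. The highest sums were on control jejunum 2, mutant jejunum 2 and control ileum 1. On these arrays Pla2g2a, a gene in the sum, was also highest in its group.

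The acute phase and liver list, to which serum amyloid A belongs by its regulation, was largely below the filter, with 5 of 18 genes tested. Against control jejunum 0 were called higher and 2 lower in mutant jejunum, and 0 higher and 3 lower in ileum (0 and 3, and 0 and 4, at an unadjusted p under 0.05 in limma), with medians of -0.71 and -1.29. Those that moved are plasma proteins: Alb, serum albumin, fell by 2.45 and fell by 2.53 (adjusted p = 0.0159 and 0.00407), and Ambp, the precursor of bikunin, fell by 1.01 and fell by 2.46 (adjusted p = 0.0492 and 8.86e-05). Alb was above the filter's level on the control jejunum arrays only, and it was not tested in every alternative. In mutant jejunum its call held in 15 of the 16 alternatives that tested it. It was lost without mutant jejunum 2 (adjusted p = 0.0676), and whether it holds in the untested alternatives is not known. The call of Ambp in mutant jejunum was lost without any 1 of 7 arrays (adjusted p from 0.0541 to 0.170). These were control jejunum 1, 2 and 3, mutant jejunum 2 and 3 and control ileum 1 and 3. The acute phase genes Orm1, Orm2, Fga, Fgb, Apcs and Itih4 were below the filter.

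**Figure D5:**
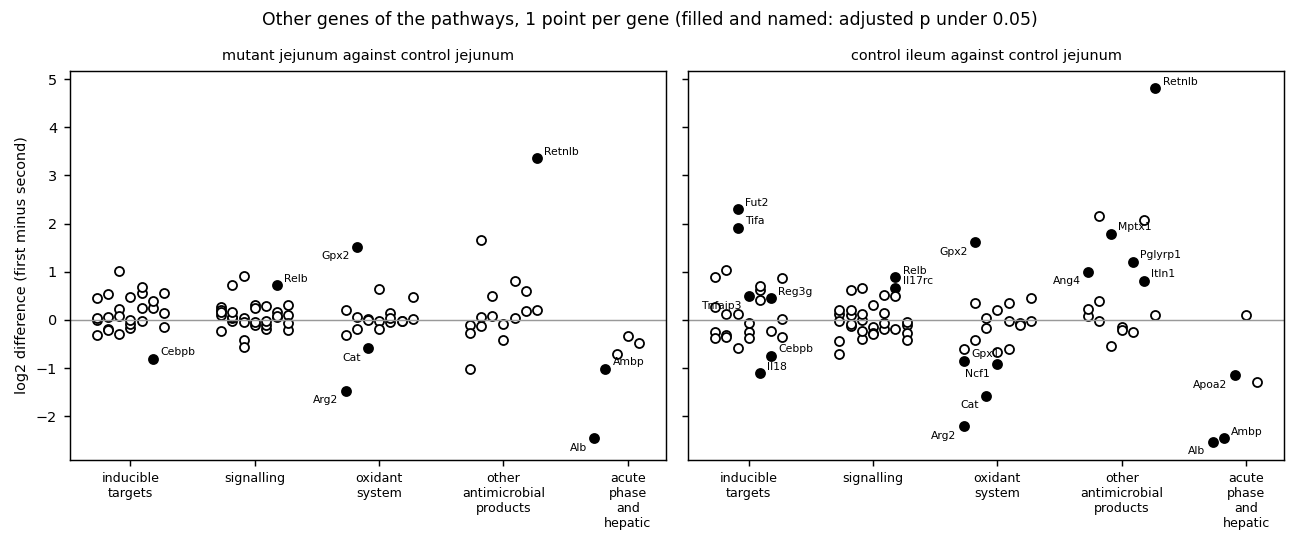
Log2 difference of each tested gene of 5 lists in mutant jejunum and control ileum, each against control jejunum, with 1 point per gene and the called genes filled and named. Retnlb is the highest called point in both (3.36 and 4.81), and Alb is the lowest (-2.45 and -2.53). Retnlb passed the filter through mutant jejunum and ileum only, and Alb through control jejunum only.

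Against control ileum, mutant jejunum had 0 genes called higher and 1 lower among the inducible targets, 0 and 0 among the signalling genes, 3 and 0 in the oxidant list, 0 and 3 among the other antimicrobial products and 1 and 0 in the acute phase list. At an unadjusted p under 0.05 in limma these were 2 and 4, 1 and 1, 6 and 0, 0 and 5, and 1 and 1. Fut2 was lower by -2.07 (adjusted p = 0.0226, lost without mutant jejunum 1 or 2 with 0.0615 and 0.0843), Ang4, a Paneth cell ribonuclease, by -2.02 (adjusted p = 0.00410) and Mptx1 by -1.30 (adjusted p = 0.00319). Cat was higher by 0.98 (adjusted p = 0.00134) and Ambp by 1.45 (adjusted p = 0.0143). For Ang4 and for Cat, 1 of 2 tested probe sets was called.

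Markers of other cells also differed between the segments. The T cell and innate lymphoid markers, 10 of 14 above the filter, summed to 6320 to 8520 in control jejunum, 7030 to 10900 in mutant jejunum and 1740 to 4530 in ileum, with 5 called lower in ileum than in control jejunum and Cd4 and Cd2 below the filter. Smooth muscle markers, all 8 above the filter, were called higher in ileum for 7 genes. Of these 7, Actg2 alone kept its call with no scaling between arrays. The neutrophil markers, 6 of 12 above the filter, summed to 162 to 205, 135 to 219 and 128 to 147, with S100a8, S100a9, Cxcr2 and Mmp8 below the filter. Between mutant and control jejunum each called marker of the cell lists was higher in the mutant. Beside Retnlb they were the epithelial Krt18 (0.84, adjusted p = 0.00271), Tspan8 (0.84, adjusted p = 0.00177) and Krt19 (0.34, adjusted p = 0.0492), the goblet cell factor Spdef (0.59, adjusted p = 0.0472) and Sdc1, a surface proteoglycan of plasma cells and epithelium (0.99, adjusted p = 0.00133). The calls of Krt19 and Spdef were each lost without any 1 of 8 of the 9 arrays, all but mutant jejunum 3 for Krt19 and all but control ileum 1 for Spdef (adjusted p from 0.0573 to 0.185 and from 0.0515 to 0.168). Of the 5 tested probe sets of Tspan8, 2 were called higher in the mutant, and of the 4 of Sdc1, 3 were. Of the goblet cell markers 2 were called higher, Retnlb and Spdef, and 5 at an unadjusted p under 0.05. In the same comparison 0 of the tested macrophage, neutrophil, fat and stroma markers were called by limma in either direction, and 0 had an unadjusted p under 0.05. Of the T cell markers 0 were called and 2 were higher at an unadjusted p under 0.05, and of the Paneth cell markers 0 were called, with 2 higher and 1 lower at that level. The part of these cells in the ileal differences of the members was not tested.

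The genes whose levels ran most like each member over the 9 arrays were listed among 4136 genes with a range of at least 1. For Saa1 they were Nupr1, Mmp7 and Agr2 (r = 0.98 each), of which Nupr1 and the matrix metalloproteinase Mmp7 are in the Paneth list and Agr2, a protein disulfide isomerase, in the goblet list. For Saa2 they were Cdo1, Syne4 and Serpina10 (r = 0.97, 0.96 and 0.96), and for Saa3 Frrs1, Fgfbp1 and Inava (0.95, 0.95 and 0.94). For Leap2 they were Ugt2a3, Gpx4 and Cyb5r3 (1.00, 0.99 and 0.99), for Duoxa2 Gpx2, Olfr870 and Mmgt2 (0.97, 0.97 and 0.96) and for Nos2 Tmed5, Gfer and Septin11 (0.96, 0.96 and 0.94). These are Pearson correlations over arrays that share the same 3 groups, so they mostly follow the differences between groups, and they are given as a description. For Duoxa2 and Gpx2 the shared pattern includes control jejunum 1, where Gpx2 read 11.90 against 10.89 and 10.13 in control jejunum 2 and 3.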

How the data were processed

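RNA isolated with RNeasy was made into biotin-labelled target by one-cycle amplification and hybridized to Mouse Genome 430 2.0 arrays, per the labels' protocols. The deposited intensity values are linear, with 1 for each probe set on each array, and come from the scanner software GCOS, per the submitters' processing notes. The GCOS version and scaling were not given in the sources used here. Array depth is the number of mice and the signal over background.

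From these intensities 64 control probe sets were left out, and log2(intensity + 16) was quantile normalized, since arrays were not of like brightness. A change of all transcripts one way could then not be seen. Probe sets above the 40th percentile (4.95) on at least 3 of 9 arrays were tested (29307, with 13830 genes) with limma 3.58.1 in R 4.3.3, in 1 fit of all 9 arrays with an intensity trend, two-sided, Benjamini-Hochberg adjusted over all of them. The fit was tested on simulated data. A gene was represented by its brightest tested probe set. Genes come from the platform's annotation: 34945 probe sets had 1 gene, 932 several and 9160 none, and 34741 matched RefSeq (GRCm38.p6).

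The members, the lists and the alternatives were chosen with earlier results of these data known. Named were all members, up to 2 called genes per direction, list and comparison, listed partners of the members, and the 3 genes most correlated with each member whose range was at least 1.5. Exceptions, chosen after their values were seen, are Pla2g2a, Krt19, Cdh1, Epcam, Tspan8 against ileum, Lyz2, Tnfaip3, the fat markers and the genes listed as below the filter. Promoter windows were compared with Biopython 1.88. Alternatives were the pseudocount, scaling, filter, trend, array weights, a replicate block, fits of 2 groups, the mean of a gene's probe sets and each array left out. The design text gives 3 mice per group, and separate animals for control jejunum and ileum.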

Additional observations from a re-analysis of the deposited data

How the results depend on the processing

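Under 20 alternatives, Leap2 in all 3 comparisons, both Saa1 probe sets against ileum in both of its comparisons, and Saa2 and Duoxa2 in ileum against control jejunum kept their direction and call. Of 199 member values in mutant against control jejunum, 14 passed the threshold where the reported value did not and 0 lost it. In ileum against control jejunum 10 lost it and 2 gained it, and in mutant jejunum against ileum 4 lost it and 1 gained it. The cause of these changes was not tested. For genes of the lists, the losses named above are mainly those without 1 array, and calls were also lost with other scaling, filters or fits. The size of differences from dim levels depended on the pseudocount: with 1 and with 64, ileum against control jejunum gave 3.09 and 1.25 for Duoxa2 and 3.83 and 1.74 for Saa2, and 64 gave 0.91 for Nos2 (adjusted p = 0.0703). Signs of uncalled member values changed 6, 1 and 8 times.

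The number of members called in mutant against control jejunum was 1, and became 3 with no scaling, 2 with arrays centred on their medians, 3 with array weights and 4 with the replicate block. Counts of probe sets, reported at 1044 for mutant against control jejunum, 4752 for ileum against control jejunum and 778 for mutant jejunum against ileum, moved to 659, 10632 and 8497 with no scaling. No scaling shifted the median of all genes to -0.42 in ileum against control jejunum and to 0.44 in mutant jejunum against ileum, and split those calls into 619 higher and 10013 lower, and 8349 higher and 148 lower, against 2449 and 2303, and 406 and 372. Median centring gave 1184 in mutant jejunum against ileum (936 higher and 248 lower), split the calls of mutant against control jejunum into 523 and 320 (against 511 and 533) and those of ileum against control jejunum into 1543 and 2665. Array weights gave 1998 and 1680 in the comparisons with mutant jejunum, and fits of the 2 groups gave 332 in mutant jejunum against ileum.

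Without 1 array at a time, the members called ran from 1 to 3 in mutant against control jejunum, from 4 to 6 in ileum against control jejunum and from 2 to 3 in mutant jejunum against ileum, and the probe sets from 400 to 1007, from 2862 to 5954 and from 199 to 1049. With no scaling, called differences reversed for Tnfaip3 (-0.01), Cdh1 (-0.14) and Epcam (-0.06) in ileum against control jejunum and for Tspan8 (0.03) in mutant jejunum against ileum.

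The replicate numbers are shared by the groups, and the labels do not say that they pair the mice. Deviations of same-numbered arrays correlated at 0.17, -0.06 and -0.01 in the jejunal groups. For control ileum they were -0.07, 0.05 and -0.04 with control jejunum, and 0.12, 0.01 and 0.10 with mutant jejunum. Such values cannot show whether same-numbered arrays were handled together. With the block, Saa1 (2.49, adjusted p = 0.0283), Duoxa2 (1.82, adjusted p = 0.0393) and Nos2 (1.69, adjusted p = 0.0454) passed in mutant against control jejunum.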

Other observations

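Pla2g2a, a secreted phospholipase of Paneth cells that kills gram-positive bacteria, differed between mice more than between groups. It read 7.12, 12.84 and 7.08 in control jejunum, 7.23, 12.77 and 8.85 in mutant jejunum, and 13.53, 9.57 and 10.16 in control ileum. In each group 1 array (control jejunum 2, mutant jejunum 2 and control ileum 1) stood well above the other 2 of its group. No comparison was drawn from these values, which were chosen after they were seen.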
